A study of Mus musculus with 6 samples.

Results

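The piRNA cluster on mouse chromosome 2, chr2:92536004-92613016, is a region of 77013 bp that gives rise to small RNAs in spermatids. Its members are all reference sequences of the deposited piRNA table whose names carry this cluster, and these are 389421 of 9924085 entries. Entries of the same position, strand and length were summed into 1 place each, which gave 174477 places of 5371578 in the table. Of these, 79442 had a count in at least 1 library. The cluster was chosen because earlier results had shown its high count level, so that level is described here without a test.

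The cells were round spermatids, haploid germ cells formed by meiosis, purified from testes of C57BL/6 mice at postnatal day 21. In all, 3 small RNA libraries came from Miwi knockout (KO) animals, a line that lacks the gene in every cell, and 3 from wild-type (WT) animals. No other allele or agent is named for these libraries. Libraries are numbered 1 to 3 within a genotype, and no label says that separate animals gave them. P-values therefore cover only the spread among these samples, and that spread may be technical. In bulk small RNA, fewer cells that make an RNA and less of that RNA per cell cannot be told apart.

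Piwi-interacting RNAs (piRNAs) of the pachytene type are cut from long single-stranded transcripts of such clusters during meiosis and stay abundant in round spermatids. The pieces are loaded onto the PIWI proteins MIWI (PIWIL1) and MILI (PIWIL2), and their 3′ ends are then trimmed to the length that the bound protein protects. MILI holds shorter piRNAs than MIWI, and most piRNAs start with uridine. RNAs of 25-28 nt are called short below and are of the length usual for MILI. RNAs of 29-32 nt are called long and are of the length usual for MIWI.

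Sequence could be read for the few cluster RNAs that lie in annotated transcripts, and the 5 most counted of these 5′ ends with a most counted WT length of at most 30 nt are shown, chosen after their values were seen. Each is given at the most counted WT length, from the GENCODE transcripts of build GRCm38 on the plus strand. Capitals mark the bases that lie beyond the most counted KO length, so they show what the KO form lacks at its 3′ end.

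Gm13815, chr2:92561434-92561463: ugagacuucguggugguaggaaaaggGAGA
Gm13815, chr2:92561529-92561558: uacuauaagguggaugaaaaugacaAAAUU
Gm13815, chr2:92561524-92561552: ugaaauacuauaagguggaugaaaaugAC
Gm13815, chr2:92561477-92561506: ucccaagaaaaauaagcauaugaggaagaA
Mir7222, chr2:92594618-92594647: ugagcuggacuacauacucugugcugaAGU

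All 5 start with u, and the KO form was 1 to 5 nt shorter. The RNA at 92561434 was most counted at 26 nt in KO, with 461 counts at that length and 41 at 30 nt, and at 30 nt in WT, with 660 counts at that length and 158 at 26 nt. The RNA at 92561529 had 128 KO counts at 25 nt and 3 at 30 nt, against 61 and 545 WT counts. Gm13815 is a processed pseudogene of 412 nt on the plus strand that is 93.7% identical to the mRNA of Rps27a, a ribosomal protein gene. The stretch at 92561434 differs from Rps27a at 9 bases, that at 92561477 at 3, and those at 92561524 and 92561529 at 1 each. How reads that match several sequences were counted is not given in the sources used here, so the counts of the last pair are uncertain.

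The table held 1009902 to 1785660 counts in the KO libraries and 4059156 to 6623310 in the WT libraries. The mRNA of Miwi itself was not analysed here, since the tables count small RNAs, so no check of the genotype labels was made on it. Of 10 marker miRNAs, none was at 0 in any library. The 3 of germ cells (miR-34b-5p, miR-34c-5p and miR-449a-5p) summed to 29.6-33.5% of miRNA counts in KO and 27.4-29.1% in WT. The 7 of muscle, vessel, blood and supporting cells summed to 2.5-2.91% in KO and 3.04-4.05% in WT. Both ranges are separate between the genotypes, but single miRNAs did not all move with their sum. Of the germ cell 3, miR-34b-5p overlapped and the others were higher in KO without overlap. Of the 7, miR-143-3p (0.711-0.774% in KO, 1.02-1.26% in WT) and miR-451a were lower in KO without overlap. By contrast, miR-223-3p was higher (0.0882-0.0922% in KO, 0.0630-0.0837% in WT), and the rest of the 7 overlapped. The part of these differences in the results was not tested.

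Against the miRNAs of the same libraries, the cluster lost its long RNAs in KO while the levels of its short RNAs overlapped between the genotypes. KO libraries 1 to 3 held 89594, 51134 and 88900 counts of the cluster. WT libraries 1 to 3 held 234077, 250865 and 384985. It was the cluster ranked 4 of 773 by counts in each of the 6 libraries. As a share of the table it made up 5.03% ± 0.0468 (SD, n = 3) in KO and 5.78% ± 0.0307 (SD, n = 3) in WT. For every 100 miRNA counts, the KO libraries had 38.2, 34.9 and 36.5 cluster counts, and the WT libraries had 130.2, 128.0 and 156.5. The WT level was thus 3.78-fold the KO level on this scale, against 1.15-fold as a share of the table. The genotypes do not overlap on either scale.

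The fold against miRNAs came almost wholly from 1 length class. On that scale, the KO libraries held 7.0 ± 0.527 long RNAs and the WT libraries 107.5 ± 13.0 (SD, n = 3), so the KO level was 15.4-fold lower. Short RNAs stood at 27.2, 24.8 and 25.5 in KO and 23.0, 23.0 and 26.7 in WT, and these ranges overlap. RNAs of 18-24 nt stood at 3.53 ± 0.247 (KO) and 3.57 ± 0.207 (WT), and RNAs of 33-34 nt at 0.188 ± 0.0340 (KO) and 2.89 ± 0.621 (WT). The classes of 28 nt or less overlap between the genotypes, and the longer classes do not. These levels rest on the miRNAs as the yardstick, and whether the miRNAs themselves differ between the genotypes was not tested.

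Cluster RNAs were shorter in every KO library than in any WT library. Long RNAs made up 20.6%, 20.7% and 22.7% of the 25-32 nt counts in KO libraries 1 to 3, and 81.5%, 81.1% and 82.1% in WT libraries 1 to 3. The exact (Clopper-Pearson) 95% intervals reach at most 0.372 percentage points to each side and cover counting error only. The means were 21.3% ± 1.21 in KO and 81.6% ± 0.497 in WT (SD, n = 3), a difference of -60.2 points. The exact two-sided permutation test gave p = 0.1 (0.1 when adjusted over the 3 shares tested), which is the smallest that 3 against 3 libraries allow.

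All 3 KO libraries peaked at 27 nt and all 3 WT libraries at 30 nt, and the mean length was 26.9 nt ± 0.0836 in KO and 29.6 nt ± 0.0434 in WT. At 26 nt lay 19.6% ± 0.529 of the KO and 3.37% ± 0.0977 of the WT counts. At 31 nt lay 2.30% ± 0.231 of the KO and 22.2% ± 0.163 of the WT counts. At each length from 18 to 28 nt the KO share was above the WT share in every library, and at each length from 29 to 34 nt it was below.

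**Figure D1:**
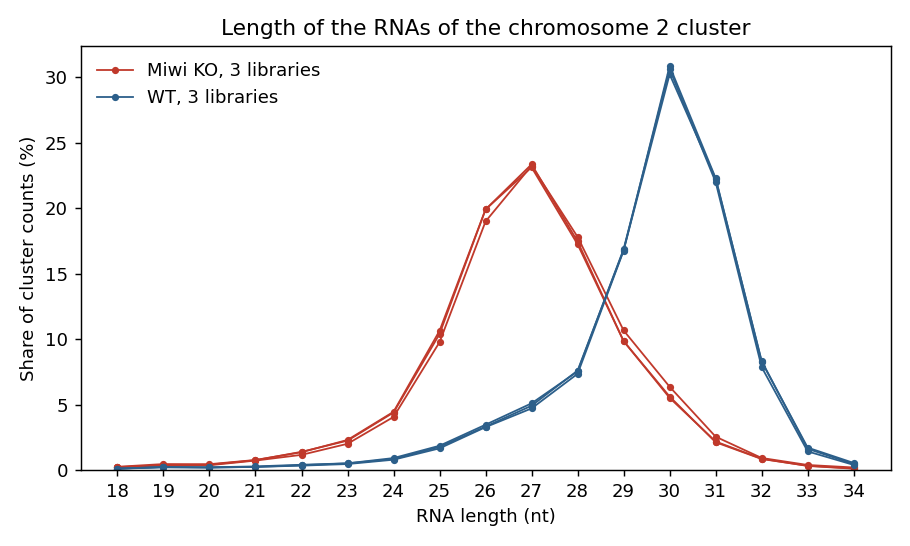
Share of cluster counts (percent, y axis) at each RNA length (nt, x axis), with 1 line per library, 3 for Miwi KO and 3 for WT. The KO lines peak at 27 nt and the WT lines at 30 nt, and lines of 1 genotype nearly coincide.

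Of the tested places, each 1 RNA of a given 5′ end and length, most long ones fell and most short ones rose in the fit reported here. The split of the short places changed with the settings, as given below. With DESeq2, with no filter or with any 1 library left out, most short places tested were not called higher. Of 2037 long places of the cluster that passed the filter on low counts, 1897 were lower in KO and 56 higher (edgeR quasi-likelihood test, Benjamini-Hochberg adjusted p under 0.05). Of all long places tested in the table, 90.2% were lower and 4.62% higher, so the cluster's count of lower places is close to that background. Of 1367 short places tested, 876 were higher in KO and 176 lower, where 68.9% of all short places tested were higher and 9.78% lower. The median log2 fold change was -5.68 for long and 1.17 for short places of the cluster, and -5.77 and 1.27 in the table. A place passes the filter through the genotype where it is high, so these counts describe the tested places only.

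The count of short places moved with the scaling, the tool and the filter. Besides 876 higher and 176 lower, edgeR gave 777 and 188 with miRNA factors and 1196 and 82 with library sizes alone. DESeq2, which differs in both scaling and test, gave 355 and 203 of the same 1367 places. With no filter, edgeR gave 827 higher and 762 lower of 32315 short places, with a median log2 fold change of 0.09. Leaving out WT library 1, 2 or 3 gave 522 of 1204, 528 of 1208 or 550 of 1211 short places higher. Leaving out KO library 1, 2 or 3 gave 901 of 2179, 1131 of 2314 or 929 of 2267. Without 1 KO library, 3101, 3110 or 3124 long places were lower, of up to 3359 tested. Other scalings moved the median log2 fold change over all places of the table by -0.17 (miRNA factors), -0.60 (DESeq2) and 1.41 (library size).

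The 3 long places that were highest by mean CPM (counts divided by the TMM-scaled library size) were nearly absent in KO. The 30-nt RNA at chr2:92569301-92569330 had KO counts of 6, 1 and 7 against WT counts of 2638, 2593 and 5608, with a log2 fold change of -9.23 ± 0.32 (SE, edgeR adjusted p = 1.21e-183). The 29-nt RNA of the same 5′ end had KO counts of 0, 1 and 5 against WT counts of 1362, 1496 and 2739 (log2 fold change -9.46 ± 0.35). The 32-nt RNA at chr2:92573034-92573065 had KO counts of 3, 2 and 2 against WT counts of 1970, 2173 and 2533 (log2 fold change -9.54 ± 0.34). No KO library came near a WT library at any of these places. The deposited table lists each of them in 20 to 28 entries, which were summed, and how reads were split among such entries is uncertain.

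The 3 short places with the highest mean CPM did not move together. The 28-nt RNA at 92569301 fell with the longer forms of its 5′ end, from 407, 375 and 737 counts in WT to 5, 3 and 9 in KO (log2 fold change -6.14 ± 0.30). The 28-nt RNA at 92571638 rose, at 96.1, 98.4 and 90.0 CPM in KO and 37.0, 49.7 and 37.6 CPM in WT (log2 fold change 1.19 ± 0.21, edgeR adjusted p = 1.47e-08). The 28-nt RNA at 92586772 stood at 86.6, 85.8 and 76.5 CPM in KO and 50.9, 38.0 and 53.2 CPM in WT (log2 fold change 0.80 ± 0.21, adjusted p = 0.000134). That last call was lost with DESeq2 (adjusted p = 0.392), with no filter (0.224) and without WT library 1 (0.104) or 2 (0.251).

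Nearly all RNA of the cluster came from the plus strand. The minus strand held 0.338%, 0.372% and 0.343% of its counts in KO libraries 1 to 3 and 0.290%, 0.271% and 0.287% in WT libraries 1 to 3. The KO share was higher by 0.0683 percentage points, with no overlap between the genotypes (exact two-sided permutation p = 0.1, the smallest possible; adjusted over 3 shares 0.1). Much of that difference lay at 1 end, picked after the values were seen: the minus-strand 5′ end at 92582414 was counted 62, 28 and 41 times in the KO libraries against 13, 21 and 28 times in the WT libraries, with a mean length of 22 nt in both. Without it the minus strand held 0.294% ± 0.0240 in KO and 0.276% ± 0.0112 in WT, a difference of 0.0188 percentage points, and the genotypes overlapped (exact two-sided permutation p = 0.3). In all, 798 KO and 2463 WT counts lay on the minus strand, and 326 and 1296 of them in Gm13817, a long noncoding RNA gene transcribed from that strand. These RNAs of Gm13817 made up 0.146% ± 0.0254 of cluster counts in KO and 0.149% ± 0.000581 in WT, and the genotypes overlap. Long RNAs were 33.2% of their 25-32 nt counts in KO and 82.0% in WT.

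The annotated genes at the edges of the cluster hold little of its RNA. The middle 99% of plus-strand counts spans 57597 bp, from 92541597 to 92599193. It starts 558 bp beyond the RefSeq end of Gm13817 (chr2:92525051-92541039, minus strand) and ends 439 bp before the RefSeq start of Chst1 (chr2:92599632-92615252, plus strand), a carbohydrate sulfotransferase gene. The gap between these genes held 99.2% of all cluster counts on the plus strand. GENCODE places 3 small genes in it, all on the plus strand: the pseudogene Gm13815 and the annotated miRNA genes Mir7221 and Mir7222.

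The share of the cluster's RNA that a stretch of the gap gave differed between the genotypes by position. In windows of 1 kb, 58 on the plus strand held at least 0.1% of cluster counts in WT. The KO share of cluster counts was above WT in every library in 28 windows, below in 23, and overlapped in 7. Among 1924 windows of all clusters with at least 300 counts in all, 38.5% were above and 41.6% below in share of their own cluster. Those windows were of either strand and kept by total counts instead of WT share, so the choice of windows differed. As a description over the 58 windows, log2 shares of KO and WT had a Pearson r of 0.77, while libraries of 1 genotype had an r of 0.994 to 0.997. The windows share their libraries and depth, so no p is given.

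**Figure D2:**
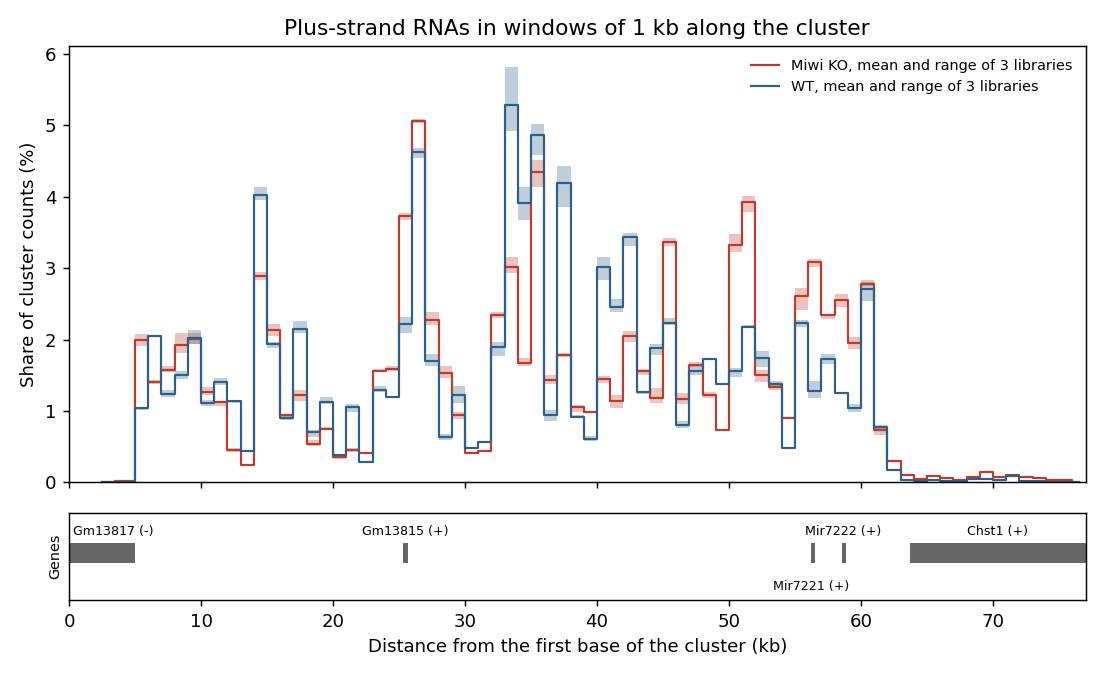
Share of cluster counts (percent, y axis) in plus-strand windows of 1 kb against the distance from the first base of the cluster (kb, x axis), as the mean (line) and range (band) of 3 libraries per genotype; grey bars below mark annotated genes and their strand. Most of the RNA lies between Gm13817 and Chst1, with the middle 99% of plus-strand counts over 57597 bp, and the heights of single windows differ between the genotypes.

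The window from 92562001 held the highest mean CPM and gave 5.04%, 5.07% and 5.08% of the KO and 4.67%, 4.54% and 4.65% of the WT cluster counts. The window from 92571001 gave 4.34% ± 0.191 in KO and 4.87% ± 0.249 in WT, and that from 92569001 gave 3.01% ± 0.121 and 5.28% ± 0.477. So of the 3 windows with the highest mean CPM, 1 took a larger share in KO and 2 a smaller one, without overlap. By CPM all 3 were lower in KO, with log2 fold changes of -0.49 ± 0.05, -0.79 ± 0.05 and -1.44 ± 0.06 in the order named (SE, edgeR adjusted p = 1.18e-08, 2.84e-11 and 1.33e-13). With library sizes alone the call of the window from 92562001 was lost (log2 fold change -0.07, adjusted p = 0.132). The widest ratios, picked after the values were seen, were 2.42-fold at 92564001 (1.53% in KO, 0.630% in WT) and 0.395-fold at 92548001 (0.448% and 1.13%). The longest run of windows with a larger KO share was 7, from 92558001 to 92565000, which takes in Gm13815.

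By CPM in the table-wide fit, 20 of 79 tested windows of both strands were higher in KO and 47 lower (edgeR, adjusted p under 0.05), where 41.1% of all windows tested were higher and 35.8% lower. This split turns with the scaling. Factors from the miRNAs gave 1 higher and 70 lower, DESeq2 gave 13 and 51, and library size without TMM factors gave 35 and 33. The median log2 fold change over all windows moved by -1.17, -0.17 and 0.42 with these scalings. Each window of the 58 held 9.20-29.5% long RNAs in KO and 70.1-87.9% in WT, so the length difference was present along the whole gap.

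The 4 annotated genes of the plus strand took a larger share of the cluster's RNA in KO. RNAs of Gm13815 on its own strand made up 2.00% ± 0.0594 of cluster counts in KO and 1.14% ± 0.0624 in WT, 1.75-fold higher. RNAs of Mir7222 (chr2:92594602-92594676) made up 0.365% ± 0.0289 and 0.120% ± 0.0103, and those of Mir7221 (chr2:92592206-92592277) 0.117% ± 0.0106 and 0.0207% ± 0.00171. The part of Chst1 inside the cluster made up 0.826% ± 0.0121 in KO and 0.371% ± 0.0158 in WT. The genotypes do not overlap at any of these 4 genes. Plus-strand RNAs over Gm13817, opposite to that gene, also had a larger share in KO, from 35 KO and 52 WT counts. They made up 0.0161% ± 0.00480 in KO and 0.00577% ± 0.00107 in WT. All of these are shares of cluster counts, which were themselves 3.78-fold higher in WT per 100 miRNA counts.

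Few RNAs of either miRNA gene shared the 5′ end of an annotated miRNA. RefSeq's mature sequences of build GRCm38.p6 are shown for the arm of each gene with the most counts, with the seed (bases 2 to 8) in capitals, beside which the RNA at 92594618 above starts elsewhere in Mir7222.

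miR-7222-3p, chr2:92594654-92594676: uCCAGGACagugggcaggagcag
miR-7221-3p, chr2:92592257-92592277: uGACUGUGggcuggggacugg

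miR-7222-3p had 28 KO and 16 WT counts in the small RNA table, and 26 and 12 counts of the cluster shared its 5′ end. miR-7221-3p had 5 KO and 2 WT counts. The whole of Mir7222 held 838 KO and 1031 WT counts, of which long RNAs were 18.8% in KO and 60.04% in WT of those of 25-32 nt. The seeds of these miRNAs differ from one another.

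Counts were also summed over all lengths at each 5′ end. A 5′ end is given below by its position on chromosome 2, and the plots label it by its base within the cluster. CPM of places, ends and windows come from separate fits with TMM factors of their own, so they are compared only within 1 kind. In all, 24347 ends had a count, 16461 in KO and 21589 in WT, and 13703 in both genotypes. These numbers depend on depth, which was 229628 cluster counts in KO and 869927 in WT, and were not compared at equal depth. The shared ends held 98.1% of KO and 96.2% of WT counts. Of the 10 most counted ends of each genotype 2 were shared, and of the 100 most counted, 41. In KO 626 ends held 50% of counts and in WT 444.

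Of 3060 ends tested, 903 were higher in KO and 1288 lower by CPM (edgeR, adjusted p under 0.05), where 34.6% of all ends tested were higher and 42.8% lower. The cluster's median log2 fold change was -0.34, against -0.30 over the table. Under factors from the miRNAs 238 were higher and 2211 lower, and the median over the table moved by -1.47. DESeq2 moved that median by -0.09 and library size by 0.11. The cluster's shares of higher and lower ends lie near those of the table.

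The highest 5′ end was at 92569301 (base 33298 of the cluster). It had 213.9, 185.0 and 228.5 CPM in KO and 1378, 1237 and 1732 in WT, a log2 fold change of -2.79 ± 0.19 (SE, edgeR adjusted p = 7.35e-23). All KO libraries lay far below all WT libraries. Its KO RNAs were most counted at 26 nt (672 of 1003 counts) and its WT RNAs at 30 nt (10839 of 21461 counts). The end 1 nt upstream, at 92569300, was most counted at 27 nt in KO and 30 nt in WT. It fell by 1.41 ± 0.18 on the log2 scale.

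The end at 92573034 (base 37031) fell further, from 1331, 1317 and 1104 CPM in WT to 121.9, 123.4 and 132.6 in KO (log2 fold change -3.31 ± 0.19, adjusted p = 6.42e-27). Its most counted length was 32 nt in WT and 27 nt in KO. The end at 92571638 (base 35635) had 578.4, 510.2 and 556.8 CPM in KO and 806.0, 809.3 and 644.4 in WT (log2 fold change -0.46 ± 0.17, adjusted p = 0.0137). With factors from the miRNAs it was -1.91. Its RNAs were most counted at 29 nt in KO and 30 nt in WT, and long RNAs were 47.0% of its 25-32 nt counts in KO and 92.4% in WT.

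The end at 92550359 (base 14356) fell by 1.62 ± 0.18 and that at 92596298 (base 60295) by 1.32 ± 0.18, both on the log2 scale. The former had the shortest KO RNAs of the 8, at 25 nt (442 of 696 counts) against 31 nt in WT. The latter kept long RNAs in KO, 83.2% of its 25-32 nt counts against 98.7% in WT, with most counted lengths of 30 and 32 nt.

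Of the 8 highest ends, 2 were higher in KO by CPM. The end at 92586772 (base 50769) had 557.5, 601.0 and 611.5 CPM in KO and 249.2, 179.8 and 293.9 in WT (log2 fold change 1.29 ± 0.18, adjusted p = 7.02e-10). With factors from the miRNAs its log2 fold change was -0.20 and not called (adjusted p = 0.359). The end at 92562023 (base 26020) had 418.0, 385.1 and 444.0 CPM in KO and 104.1, 100.4 and 93.5 in WT (log2 fold change 2.07 ± 0.17, adjusted p = 2.76e-18), and 0.60 with miRNA factors (adjusted p = 0.00421).

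The end at 92562023 had a broad range of lengths in both genotypes. Its mean length was 28.7 nt in KO and 28.6 nt in WT, and its most counted lengths were 33 nt (291 of 1982 counts) and 32 nt (204 of 1415 counts). At the other 7 of the 8 highest ends the most counted KO length was 1 to 6 nt below the WT length. In the plot of lengths, base 26020 shows a broad spread from 22 to 33 nt in both genotypes.

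**Figure D3:**
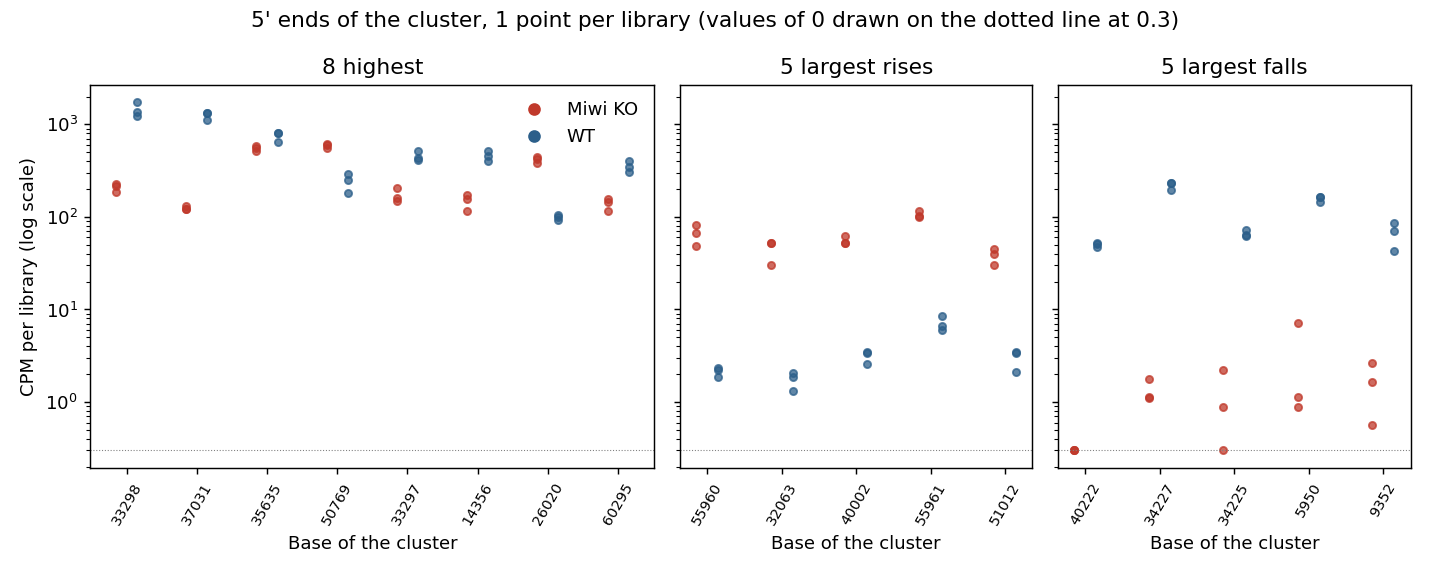
CPM (y axis, log scale) of each library at the 8 highest 5′ ends, the 5 largest rises and the 5 largest falls, labelled by base of the cluster (x axis); values of 0 are drawn on the dotted line at 0.3. The 3 KO points and the 3 WT points do not overlap at any of the 8 highest ends. The rises and falls were chosen among ends without overlap.

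**Figure D4:**
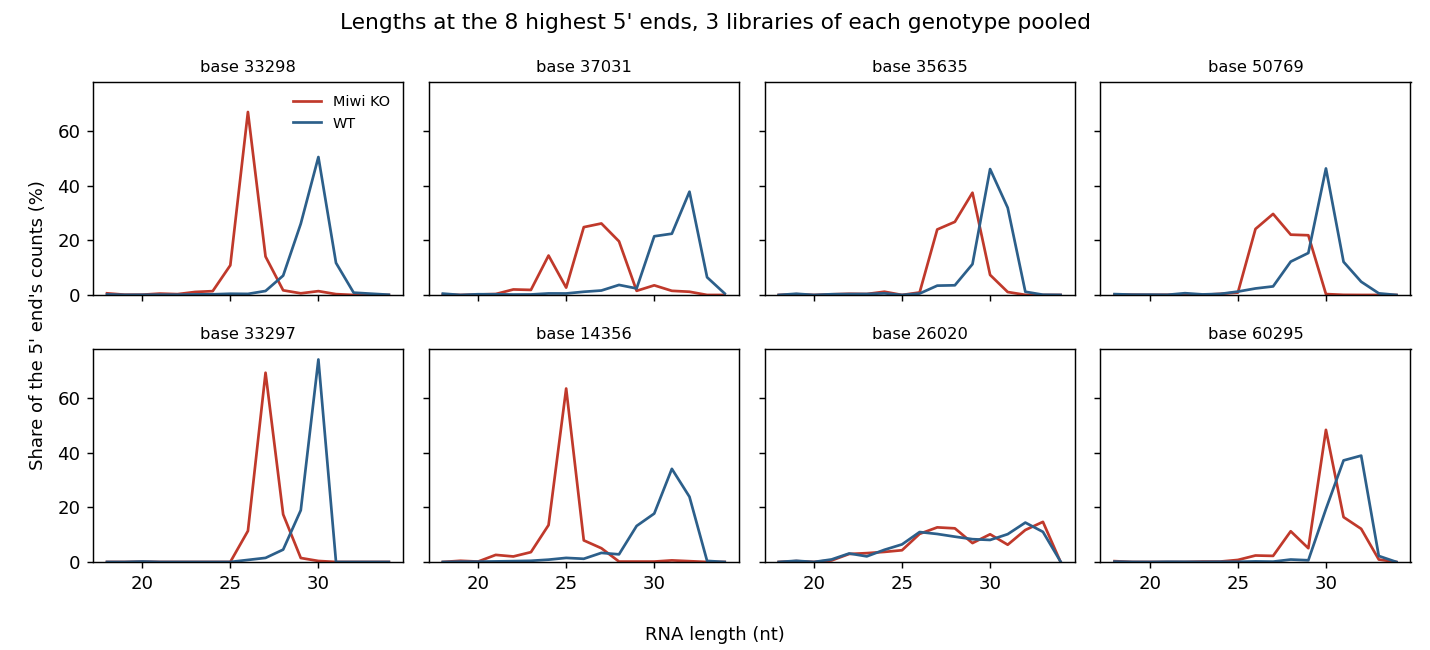
Share of each 5′ end's counts (percent, y axis) by RNA length (nt, x axis) at the 8 highest ends, with the 3 libraries of a genotype pooled. The KO curve lies to the left of the WT curve in 7 panels, and at base 26020 both are broad and alike.

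The largest rises among ends of at least 20 mean CPM were RNAs that were already short in WT. At 92591963 the 3 KO libraries had 67.8, 48.5 and 81.2 CPM and the WT libraries 2.35, 1.88 and 2.22 (log2 fold change 4.93 ± 0.26, adjusted p = 6.04e-29). The next base, 92591964, rose by 3.91 ± 0.21, and 92568066 by 4.63 ± 0.29. The ends at 92576005 and 92587015 rose by 4.11 ± 0.25 and 3.64 ± 0.27. All 5 kept a positive log2 fold change with miRNA factors, from 2.16 to 3.45. Their most counted length was 26 to 28 nt and was the same in both genotypes at each of the 5, although WT had only 26 to 101 counts at each.

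The largest falls were RNAs that were long in WT and had few or no KO counts at any length. The end at 92576225 had 0 counts in each KO library and 196, 203 and 332 in WT, at least 79.9-fold lower against a floor of 3 counts over the KO group. The end at 92570230 had KO counts of 2, 2 and 2 against WT counts of 881, 979 and 1228, 169-fold lower in the pooled libraries (counting interval 77.5 to 460.5). At 92570228, 2 nt upstream, KO had 5 counts in all and WT 945. The ends at 92541953 and 92545355 had 16 and 7 KO counts against 2272 and 902 in WT. Long RNAs were 91.8-99.8% of the 25-32 nt WT counts at these 5 ends. KO counts summed over all lengths were 0 to 16 at each of them.

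Where both genotypes used the same 5′ end, the KO RNA was shorter at nearly all of them. Of 824 ends with at least 50 counts in each genotype, the mean length was lower in KO at 812 and higher at 8. The median difference was -2.10 nt, with quartiles of -2.83 and -1.36 and a range from -8.60 to 0.757. Each KO library gave a like median against WT, -2.11, -2.12 and -2.05 nt. The most counted length was lower in KO at 672 ends, the same at 133 and higher at 19. These ends held 54.2% of KO and 48.3% of WT counts. Ends are not replicates, so no test is given.

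How far a 5′ end kept its share in KO went along with how long its RNA was in WT. Among 991 ends with a mean share of at least 0.02% over both genotypes and at least 20 WT counts (of 993 with that share), 46 had a WT mean length under 27 nt, and their median ratio of KO to WT share was 5.78. The ratio was 3.46 at 27-28 nt (67 ends), 1.81 at 28-29 nt (200 ends), 0.785 at 29-30 nt (431 ends), 0.472 at 30-31 nt (209 ends) and 0.498 at 31 nt and over (38 ends). In this choice of ends the ratio fell with each step up to 31 nt and was level beyond it. As a description over these ends, the Pearson r of WT mean length and the log2 ratio was -0.58. Length and share come from the same libraries and counts, so no p is given. Ends chosen by at least 200 WT counts instead gave an r of -0.40 over 823 ends, with median ratios from 1.99 (3 ends) to 0.307 (44 ends). There the ratio was not level at the top, with 0.362 at 30-31 nt (233 ends) and 0.307 at 31 nt and over.

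**Figure D5:**
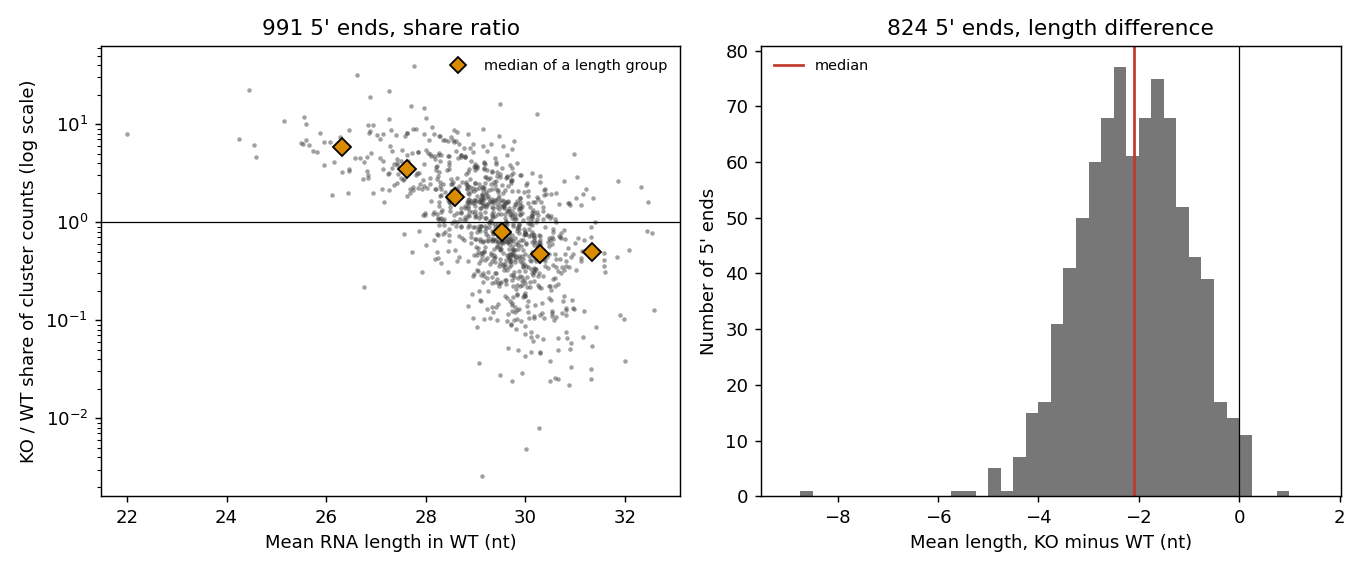
Left, ratio of KO to WT share of cluster counts (y axis, log scale, 0.5 added to each count) against mean RNA length in WT (nt, x axis) for 991 5′ ends, with diamonds at the medians of the length groups. Right, number of 5′ ends (y axis) by KO minus WT mean length (nt, x axis) for 824 ends, with the median of -2.10 nt as a red line. The medians of the groups under 29 nt in WT lie above 1 and those of the groups from 29 nt up below it, with single ends on both sides; most length differences lie below 0.

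The first base was known for 17180 counts at 276 ends in annotated exons, 1.56% of cluster counts. Most of them, 4622 KO and 10011 WT counts, were RNAs of the pseudogene Gm13815 on its own strand. The values below thus describe mainly that pseudogene and not the whole cluster. Of all counts with a known first base, 87.9%, 90.4% and 89.9% in KO and 92.0%, 92.0% and 92.7% in WT started with U. The means were 89.4% ± 1.31 and 92.2% ± 0.418 (SD, n = 3), and the exact two-sided permutation test gave p = 0.1, the smallest possible (adjusted over 3 shares 0.1). The genotypes do not overlap, although within short RNAs the order was the other way, with 86.5-88.4% in KO and 83.2-85.2% in WT. Only 137 of the 276 ends started with U, so the ends that did held most counts.

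Set beside clusters of like size, the length difference was of like magnitude and the strand use was not. The 3 clusters with the nearest mean share of the table lie on chromosome 6 (127778004-127842026), chromosome 5 (113316068-113373001) and chromosome 7 (73774005-73842029). Their share of long RNAs differed by -60.8, -58.1 and -57.4 points between KO and WT, against -60.2 here. Their less used strand held 19.6%, 38.8% and 28.6% of counts, against 0.317% here. Among 63 clusters with at least 1000 counts of 25-32 nt in each library, the fall of the long share here ranked 17, with a median of -58.1 points and a range from -64.8 to -0.596. Its minority strand share ranked 21 from the lowest, and their median was 0.612%. None of these differences between clusters was tested.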

How the data were processed

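The deposited tables hold raw counts of reads, 1 value for each reference sequence and library, which the authors made with featureCounts v1.5.0-p2, per the file headers. Cutadapt, DESeq2 and the build mm9 are also named, per the submitters' processing notes, and the aligner is not given in the sources used here. Entry lengths hold 20 nt more than the RNA, which were subtracted, and the entry length stands for the read length. Positions were read as 1-based GRCm38: there the named 5′ base was U for 91.3% of cluster counts in annotated exons, against 6.24-36.2% at the neighbouring bases. GENCODE M21 and RefSeq gave annotations and sequences.

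Places, 5′ ends (summed over length) and 1-kb windows of the whole table were each tested without a block by the quasi-likelihood method of edgeR 4.0.16 (R 4.3.3), with TMM factors; filterByExpr kept units by a minimum count of 10 and total of 15. P-values were Benjamini-Hochberg adjusted over all units tested, with a threshold of 0.05. The code was run on simulated counts in which few units changed, with rises and falls in equal number. Most places of these data were called, so that run does not check the scaling. Alternatives were DESeq2 1.42.0, library size only, miRNA factors, other filters, the replicate block, leaving out libraries, the highest entry of a place and other windows. Shares were compared with exact permutation tests in Python 3.11.15. Libraries of 1 genotype differed by more than sampling noise (chi-square over degrees of freedom 1.34-2.67). Named ends were the 8 highest by mean CPM and the 5 largest rises and falls of at least 20 mean CPM without overlap; named places and windows were the 3 highest. The cluster, its members and all lists were chosen with earlier results of these data known.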

Additional observations from a re-analysis of the deposited data

How the results depend on the processing

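The share of long RNAs, the minority strand share and the share starting with U kept their direction under the alternatives run, libraries left out included, with p at 0.1, the smallest these designs allow, and 1 exception: without the minus-strand end at 92582414, chosen after seeing the data, the minority strand difference was 0.0188 points (exact permutation p = 0.3). Leaving out the 10 most counted ends could not change the share starting with U, since none of them has a known base. The median length difference moved to -1.82 nt at a minimum of 200 counts, -1.96 nt over 25-32 nt, and between -2.21 and -1.90 nt without 1 library. The log2 ratio of cluster counts, KO to WT, was -0.20 as a share of the table and -1.92 per 100 miRNA counts. Long places lower in KO numbered 1897 in the fit reported, 8627 with no filter, 603 at a minimum count of 30, and 1281 to 3124 without 1 library, as the number of places tested changed. Short places higher numbered 876 of 1367 tested, and 355 of 1367 with DESeq2. They numbered 294 of 357 at a minimum of 30, and 513 of 1155 from the highest entry of each place. Without 1 library they numbered 522 to 1131, as the number tested changed. Ends lower numbered 1288, and 2211 with miRNA factors, 2453 with no filter, 609 at a minimum of 30; ends higher numbered 903, and 238 with miRNA factors and 398 at a minimum of 30. Windows lower numbered 47, and 17 of 27 windows of 5 kb. Leaving out both libraries numbered 3, an alternative chosen after seeing the data, gave 2079, 600, 1247, 897 and 48 in the same order.

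Same-numbered libraries correlated at -0.00215 to 0.0820 after the genotype means were removed, and differently numbered ones at -0.0796 to 0.0227. Libraries 2 and 3 correlated most with their own number, at 0.0537 to 0.0820, and libraries 1 did not. No value was above 0.1, so the numbers were not taken to pair the samples, although a weak pairing was not tested. With the replicate block, 1891 long places were lower, 842 short places higher, 1283 ends lower, 899 ends higher and 47 windows lower. Among 27 named ends, places and windows, 345 of 351 alternative values kept direction and call, 5 lost the call and 1 reversed, the end at 92586772 with miRNA factors (-0.20); the cause was not tested. KO depth, 51134 to 89594 cluster counts, limits the ends and places that could be tested.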

Other observations

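The few minus-strand RNAs were set against the plus strand by the overlap of their 5′ ends. Of 1130 minus-strand 5′ ends, 528 had a plus-strand partner at an overlap of 10 nt and 538 at 29 nt. At the other overlaps from 1 to 30 nt the number was 315 to 424, with a median of 393.5. The overlaps were counted over both genotypes together and were not tested.

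The distance from the 3′ end of a plus-strand RNA to the 5′ end of the next showed no peak at the adjoining base. In KO the counts paired at a distance of 1 nt came to 9.73% of plus-strand counts, against 9.15-11% over the distances from -10 to 30 nt, and in WT 8.86% against 8.12-10.3%.

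Where the base at position 10 was known, A was found in 20.3%, 18.8% and 19.3% of counts in KO and 28.5%, 26.9% and 26.6% in WT. These values rest mainly on the RNAs of Gm13815 and were not tested.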
